A study of Zea mays with 12 samples.

Results

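The genes described here are 135 maize genes whose transcripts were biased toward bundle sheath (BS) cells, relative to mesophyll (M) cells, at each of 3 leaf stages. They were chosen by their FPKM values (fragments for each kilobase of a transcript, normalised for the mapped fragments of each library) from 110005 gene models, 47572 of them with a value above 0 somewhere. At every stage the mean of the BS libraries was at least 10 FPKM and at least 4 times the mean of the M libraries, and both BS values lay above both M values. These limits were met by 142 genes, and 7 of them were left out by name, among them the decarboxylases NADP-ME and PEPCK, a Rubisco small subunit gene and a Rubisco activase gene. Since BS and M values chose the genes, their BS/M ratios within a stage are given as a description with no test. The limits set a floor at each stage but no direction along the leaf, so changes between stages were tested, although the values tested also entered the choice.

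The material was the third leaf of 9-day-old seedlings, with no treatment or mutation that differs between groups. All 12 samples are labelled as the inbred Mo17, although the study's methods name both Mo17 and B73. The study states that the section at sink-source transition receives less light than the later sections. Stage and light therefore cannot be told apart in changes from that section. There were 6 groups of 2 libraries, 12 in all: BS and M cells at sink-source transition (SST, section 4 at -1 cm), BS and M cells at the maturing stage (section 9 at 4 cm), and BS and M cells at the mature stage (section 14 at 9 cm). Laser microdissection (LM) served to collect the cells, which are cut under a microscope from fixed and embedded tissue, and their RNA was amplified by 1 round before sequencing. Nothing in the labels states that the libraries of a group came from separate plants, so p-values measure the spread between these libraries, which may be technical.

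In a maize leaf each vein is ringed by BS cells, and M cells form the next layer outward. M cells fix CO2 into C4 acids, and BS cells release it again and refix it with Rubisco in the Calvin cycle. BS chloroplasts also make most of the leaf's starch, BS cells hold the glycine decarboxylase of photorespiration and much of sulfur assimilation, and sugars and minerals pass through the BS on their way to and from the vein. At sink-source transition the blade turns from importing to exporting sugar, while at the later stages the C4 pathway is assembled and working.

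The depth of the libraries, estimated from the steps of low values relative to the first SST BS library, was 0.645 to 1 at SST, 2.31 to 2.36 at maturing and 0.874 to 1.21 at mature, and libraries of a group correlated at 0.898 to 0.934. Scaling to a common upper quartile moved the median log2 BS/M of moderately abundant genes at maturing to -0.14, against 0 in the deposited values. The M markers PepC, PPDK, MDH and carbonic anhydrase were lower in BS than in M libraries at every stage, with BS levels of 18.7 to 43.5% of the M level. Mature BS library 1 stood apart from library 2: all 4 M markers were higher in it, by 1.54 to 2.05 times, and 89 of the 135 BS-biased genes were lower in it. Among other cell types the captures could hold, the epidermal genes gl1 and ocl1 stayed under 5 FPKM in BS libraries and were lower there than in M libraries, and of the secondary wall genes of xylem, cesa11 and cesa12 were at or below 1.56 FPKM in every library while cesa10 was about as high in BS as in M cells (ratio 0.950 to 1.14). The phloem loading gene sut1 is itself 1 of the 135, as is the MtN3 family gene GRMZM2G021706, of the SWEET family of sugar exporters. The phloem markers sweet13a, sweet13b and sweet13c and the epidermal markers gl2 and gl8 were also sought, but no identifier was found under these symbols. The search was by symbol or synonym, so these genes may be present under other names. Whether the MtN3 family gene is itself a sweet13 gene was not settled by it.

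Across the 135 genes the BS/M ratio of means had a median of 7.26 at SST, 35.3 at maturing and 8.81 at mature. It ranged from 4.14 to 78.8 at SST, from 4.20 to 222 at maturing and from 4.11 to 50.7 at mature, and in 124 genes the maturing ratio was the highest of the 3. A ratio above 20 was found in 10 genes at SST, in 102 at maturing and in 9 at mature. The M level of a gene was a median of 13.8% of its BS level at SST, 2.83% at maturing and 11.4% at mature. The median level in BS libraries was 41.8 FPKM at SST, 106 FPKM at maturing and 84.9 FPKM at mature, while in M libraries it was 5.37, 2.85 and 9.22 FPKM at these stages. At maturing the median was thus the highest of the 3 stages in BS cells and the lowest in M cells. The 7 genes left out by name had median ratios of 7.83 at SST, 24.7 at maturing and 10.4 at mature. The 12 genes that met the same limits with the cell types exchanged had median M/BS ratios of 5.07, 4.72 and 5.26 at these stages. The maturing libraries were also the deepest, and what depth, the makeup of the captures or the RNA content of the cells contributed was not tested. In captured material, fewer cells of a type and less RNA per cell cannot be told apart.

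**Figure D1:**
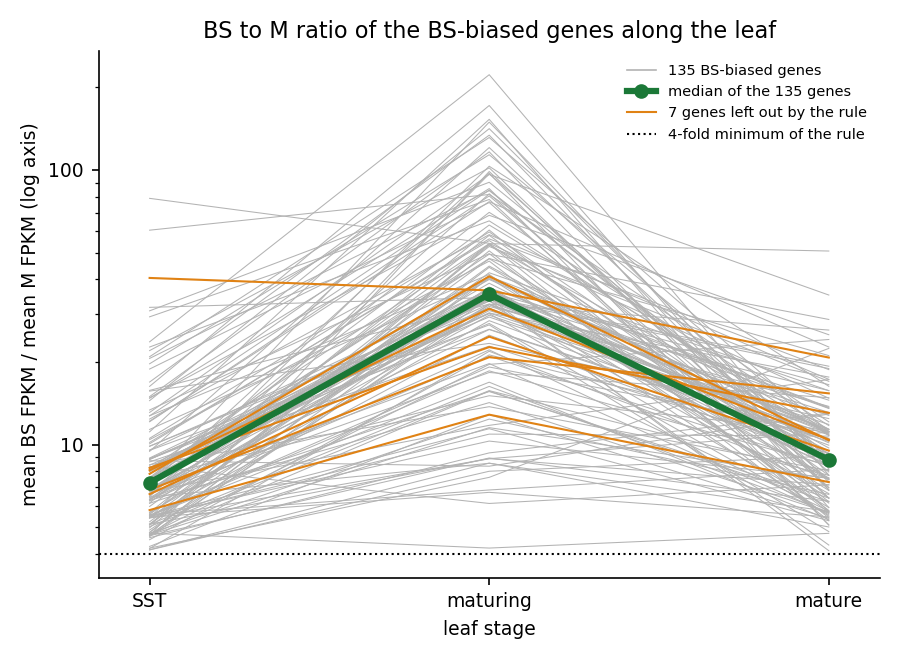
BS/M ratio of mean FPKM (log axis) at SST, maturing and mature, with 1 grey line for each of the 135 BS-biased genes, their median in green, the 7 genes left out by name in orange and the 4-fold limit dotted. The median is 7.26 at SST, 35.3 at maturing and 8.81 at mature, and 124 of the 135 lines are highest at maturing.

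Summed over the 135 genes, FPKM made up 2.76 and 2.77% of the library total in SST BS cells, against 0.363 and 0.313% in SST M cells. In maturing libraries the share was 5.07 and 5.50% in BS cells, against 0.196 and 0.171% in M cells, and in mature libraries 4.92 and 5.95% in BS cells, against 0.71 and 0.593% in M cells. Among the 100 genes with the highest BS level, 7 at SST, 9 at maturing and 10 at mature belonged to the 135. The BS level peaked at SST in 11 genes, at maturing in 66 and at mature in 58. Between its lowest and its highest stage the BS level of a gene differed by a median of 3.34 times, from 1.17 times in the ethylene-responsive gene GRMZM2G030123 to 86.4 times in GRMZM2G022958. For 94 of the 135 genes no function is given here, so most are known by identifier alone.

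At the edge of the choice, GRMZM2G014441 had the lowest ratio of the 135, 4.11 at mature, with 88.0 and 72.8 FPKM in BS cells, against 17.98 and 21.2 FPKM in M cells. The next lowest were 4.14 at SST in GRMZM5G805641, with 42.1 and 62.5 FPKM in BS cells, against 10.4 and 14.9 FPKM in M cells, and 4.14 at SST in the starch synthase gene SS3. Just outside lay GRMZM2G047592 at 3.95 (125 and 106 FPKM in BS cells, against 32.4 and 25.9 FPKM in M cells at SST), GRMZM2G427054 at 3.95 (322 and 625 FPKM in BS cells, against 164 and 75.8 FPKM in M cells at mature) and GRMZM5G854532 at 3.94 (51.9 and 44.4 FPKM in BS cells, against 9.88 and 14.6 FPKM in M cells at SST).

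The highest BS level of the 135 genes belonged to GRMZM2G162529, a gene with no function in the tables, with 3831 and 4128 FPKM at SST, 13455 and 13941 FPKM at maturing and 5955 and 7350.3 FPKM at mature in BS cells. In M cells it had 565 and 509.7, 379.6 and 329 and 607 and 824 FPKM at these stages. It rose in BS cells from SST to maturing (log2 change 1.90 ± 0.20, adjusted p = 0.00045) and fell from maturing to mature (-0.98 ± 0.20, adjusted p = 0.0086), and the fall was lost in 10 of the 12 fits without 1 library (adjusted p up to 0.054). Next came GRMZM2G164229, which the study's annotation places in metal handling and also names a retrotransposon protein, with 6693 and 7899 FPKM in BS cells, against 1920.3 and 1468 FPKM in M cells at mature. It was followed by GRMZM2G046284, with 6758 and 8716 FPKM in BS cells, against 609 and 774 FPKM in M cells at mature and a BS level of 1751 and 1539 FPKM at SST. In GRMZM2G137147 the values at maturing were 6782 and 6247 FPKM in BS cells, against 168 and 149 FPKM in M cells, and the ratio was 41.1, the ratio at SST being 4.79. The fifth was fdx2 (GRMZM2G048313), a ferredoxin, the iron-sulfur protein that carries electrons from photosystem I.

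Of the other genes among the 15 with the highest BS mean, GRMZM2G138258 held nearly level in BS cells between maturing (2888 and 3395 FPKM) and mature (2820.1 and 4068 FPKM), against 108 and 92.0 and 265 and 352 FPKM in M cells. GRMZM2G480850 had its highest level at mature, 4265 and 6844 FPKM in BS cells, against 439 and 536 FPKM in M cells, and rose there in both cell types (log2 change 2.75 ± 0.27, adjusted p = 0.00026 in BS and 4.41 ± 0.27, adjusted p = 2.6e-05 in M). Each of GRMZM5G896082, GRMZM2G026807, GRMZM2G155253, GRMZM2G306732 and GRMZM2G157583 was above 500 FPKM in every BS library, and their M values lay between 52.1 and 326 FPKM. GRMZM5G896082 rose in BS cells from SST to maturing by 2.01 ± 0.18, adjusted p = 0.00019, with 2635 and 2525 FPKM at maturing. GRMZM2G026807 rose less, by 0.80 ± 0.12, adjusted p = 0.0022, and that call was lost without SST BS library 2 (adjusted p = 0.011). The remaining genes of the 15 were shbp1, bss1 and GRMZM2G022958, described below.

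The bias that held best over the whole blade, taken as the lowest of a gene's 3 ratios, was that of GRMZM5G826357, with ratios of 31.6 at SST, 34.3 at maturing and 19.3 at mature. Its values were low, 12.9 and 12.3 FPKM in BS cells, against 0.282 and 0.516 FPKM in M cells at SST and 54.6 and 47.7 FPKM in BS cells, against 2.84 and 2.46 FPKM in M cells at mature. GRMZM2G152591 came next with ratios of 15.8 at SST, 32.5 at maturing and 26.1 at mature. GRMZM6G198866 had ratios of 14.8 at SST, 68.4 at maturing and 25.1 at mature, and its values at maturing were 285 and 192 FPKM in BS cells, against 5.34 and 1.64 FPKM in M cells. The MYB-related gene MYBR41 (GRMZM2G150260) had an SST ratio of 78.8, from 21.7 and 14.1 FPKM in BS cells, against 0.454 and 0 FPKM in M cells. In GRMZM2G337706, GRMZM5G863696, GRMZM2G048136, GRMZM2G047626, GRMZM2G013970 and GRMZM2G007928, which complete the 10 genes with the highest lowest ratio, that ratio lay between 11.4 and 13.1. At SST 5 of the 135 genes were listed at 0 in 1 M library, among them MYBR41, GRMZM2G013970 (49.1 and 49.4 FPKM in BS cells, against 0 and 1.63 FPKM in M cells) and GRMZM5G863696 (23.5 and 25.4 FPKM in BS cells, against 3.12 and 0 FPKM in M cells). At maturing and at mature 2 genes each were so listed. A ratio to so low an M value is loosely fixed.

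Sorted by what their products are known to do, 41 of the genes fell into 6 groups, which were drawn up after the values had been seen. The ratio was highest at maturing in 6 of the 7 genes of photosynthesis in the BS chloroplast, in 5 of 7 of starch and sugar phosphates, in 5 of 5 transporters, in 6 of 6 of nitrogen, sulfur and photorespiration, in 6 of 8 regulators and in 8 of 8 of the remaining group. The median ratio at maturing was 8.56 in the starch group and 54.0 in the regulators, with the other groups between 26.4 and 41.6. Counts of changes in these groups are to be read against the counts over the 135 genes given further on.

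**Figure D2:**
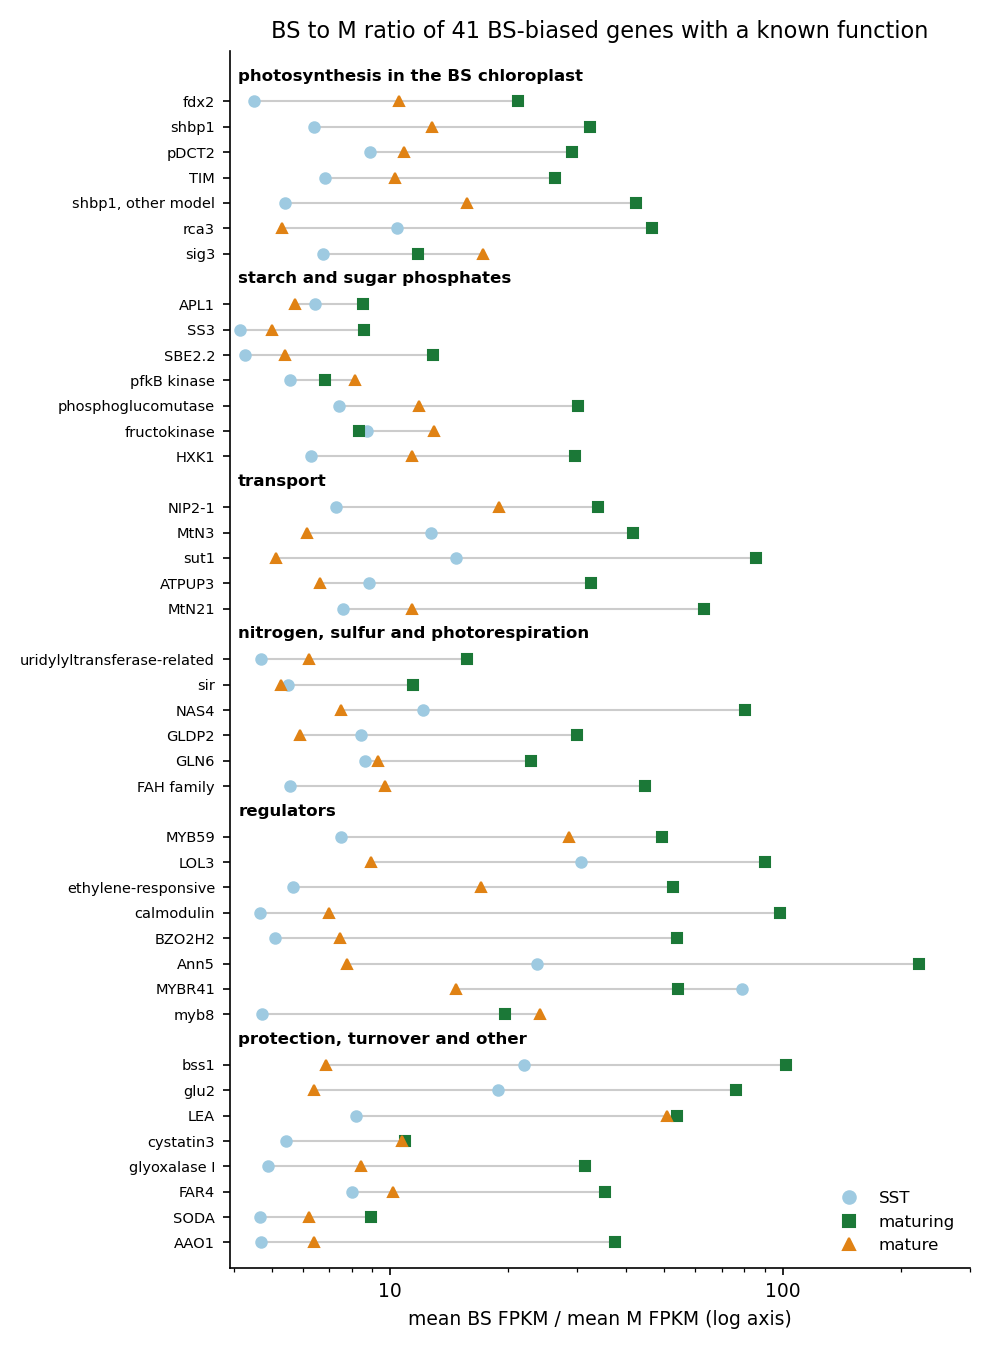
BS/M ratio of mean FPKM (log axis) at SST (light blue circles), maturing (green squares) and mature (orange triangles) for 41 BS-biased genes with a known function, in 6 groups. The square lies farthest to the right in most rows, with Ann5 at 222, and the ratios of the starch enzymes APL1, SS3 and SBE2.2 stay below 13 at all stages.

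Among the genes of the BS chloroplast, fdx2 (GRMZM2G048313) was the most abundant, with 1957 and 1742 FPKM in BS cells, against 394 and 427 FPKM in M cells at SST. At maturing it had 5856 and 4032 FPKM in BS cells, against 214 and 252 FPKM in M cells, and at mature 2647 and 5736 FPKM in BS cells, against 445 and 350.1 FPKM in M cells. The lower of the mature BS values came from library 1, which also held more M marker transcripts, and no change of fdx2 passed the test in either cell type. Sedoheptulose bisphosphatase (shbp1, GRMZM5G814089), an enzyme of the regenerative part of the Calvin cycle, had 2065 and 2207 FPKM in BS cells, against 81.4 and 51.0 FPKM in M cells at maturing. Its BS levels at SST (1654 and 1437 FPKM) and mature (2492 and 3169 FPKM) differed from this by no called change. In M cells it fell from SST to maturing (log2 change -1.65 ± 0.24, adjusted p = 0.003) and rose again from maturing to mature (1.64 ± 0.24, adjusted p = 0.0018). The fall was lost in 7 of the 12 fits without 1 library (adjusted p up to 0.025) and the rise without mature M library 2 or maturing M library 2 (adjusted p up to 0.018). A further gene model, GRMZM6G741210, is paired with the same gene in RefSeq, so that reads may have been split between the models, and its values are uncertain.

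The plastid dicarboxylate transporter pDCT2 (GRMZM2G086258), of a family that carries malate across the chloroplast envelope, had 1027 and 1029 FPKM in BS cells, against 122 and 109 FPKM in M cells at SST, with ratios of 8.89 at SST, 29.1 at maturing and 10.8 at mature. Its only called change was a fall in M cells from SST to maturing (log2 change -1.15 ± 0.16, adjusted p = 0.0023), a call lost without maturing M library 2, SST M library 1, maturing M library 1 or SST M library 2 (adjusted p up to 0.021). Triose phosphate isomerase (TIM, GRMZM2G030784), which interconverts the triose phosphates of the Calvin cycle, had 136 and 128 FPKM in BS cells at SST, 101 and 101 FPKM at maturing and 88.6 and 159 FPKM at mature. Its M levels were 16.7 and 22.0, 4.67 and 3.03 and 13.0 and 11.2 FPKM at these stages. The M level of TIM fell and then rose (log2 change -2.03 ± 0.31, adjusted p = 0.0034 and 1.49 ± 0.31, adjusted p = 0.0088), the fall being lost in 10 of the 12 fits without 1 library (adjusted p up to 0.033) and the rise in 10 of the 12 fits without 1 library (adjusted p up to 0.073).

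The Rubisco activase gene rca3 (GRMZM2G162282) was low, with 18.9 and 19.8 FPKM in BS cells, against 0.482 and 0.349 FPKM in M cells at maturing, and rose in M cells from maturing to mature (2.65 ± 0.28, adjusted p = 0.00035). The sigma factor sig3 (GRMZM5G830932), which guides the plastid RNA polymerase to promoters, had 21.3 and 21.0 FPKM in BS cells, against 1.93 and 1.67 FPKM in M cells at maturing and no called change.

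In the starch group the large subunit of ADP-glucose pyrophosphorylase, APL1 (GRMZM2G391936), which commits sugar phosphate to starch, had 339.9 and 321 FPKM in BS cells, against 57.7 and 44.9 FPKM in M cells at SST. Libraries of the maturing stage gave 522 and 583 FPKM in BS cells, against 66.3 and 62.9 FPKM in M cells, and those of the mature stage 327 and 410.2 FPKM in BS cells, against 63.2 and 66.0 FPKM in M cells. Its M values lay between 44.9 and 66.3 FPKM at all stages, and its rise in BS cells from SST to maturing (log2 change 0.85 ± 0.17, adjusted p = 0.0088) was lost in 8 of the 12 fits without 1 library (adjusted p up to 0.049). The starch synthase SS3 (GRMZM5G897776), which lengthens glucan chains, had 64.8 and 72.1 FPKM in BS cells at SST, 168 and 168 FPKM at maturing and 248 and 233 FPKM at mature, against 17.9 and 15.2, 20.7 and 18.5 and 42.3 and 53.6 FPKM in M cells. It rose in BS cells at the first step (1.41 ± 0.16, adjusted p = 0.00069), a call that held with every library left out in turn, and in M cells at the next (1.15 ± 0.16, adjusted p = 0.0015), which was lost without maturing M library 2 (adjusted p = 0.013). The branching enzyme SBE2.2 (GRMZM2G073054) had 110.5 and 118 FPKM in BS cells, against 9.84 and 7.94 FPKM in M cells at maturing and rose in M cells from maturing to mature (1.55 ± 0.26, adjusted p = 0.0031), a call lost in 6 of the 12 fits without 1 library (adjusted p up to 0.032). These 3 starch enzymes had narrower ratios than most of the 135 genes at maturing, 8.55, 8.56 and 12.9.

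Of the enzymes that handle hexoses and hexose phosphates, phosphoglucomutase (GRMZM2G067908) had 53.2 and 51.6 FPKM in BS cells, against 2.196 and 1.28 FPKM in M cells at maturing, with no called change. The hexokinase HXK1 (GRMZM5G856653), which phosphorylates glucose and in Arabidopsis also senses it, had 23.0 and 27.7 FPKM in BS cells, against 3.55 and 4.50 FPKM in M cells at SST and 13.9 and 17.3 FPKM in BS cells, against 0.416 and 0.637 FPKM in M cells at maturing. No change of HXK1 was called in BS cells, and in M cells it fell at the first step (-2.26 ± 0.26, adjusted p = 0.0011) and rose at the next (1.79 ± 0.26, adjusted p = 0.0017), the rise being lost without maturing M library 1 or mature M library 2 (adjusted p up to 0.015). A fructokinase gene (GRMZM2G072091) had 51.3 and 51.1 FPKM in BS cells, against 4.91 and 6.80 FPKM in M cells at SST. For maturing the values were 11.1 and 10.8 FPKM in BS cells, against 1.08 and 1.55 FPKM in M cells, and for mature 25.7 and 40.9 FPKM in BS cells, against 3.10 and 2.05 FPKM in M cells. It fell in BS cells and rose again (log2 change -2.08 ± 0.30, adjusted p = 0.002 and 1.61 ± 0.30, adjusted p = 0.0055). The fall was lost without maturing BS library 1, SST BS library 2, SST BS library 1 or maturing BS library 2 (adjusted p up to 0.02) and the rise in 7 of the 12 fits without 1 library (adjusted p up to 0.041). A related gene of the pfkB kinase family, GRMZM2G132607, had 51.6 and 52.8 FPKM in BS cells, against 6.52 and 8.76 FPKM in M cells at maturing, and none of its changes was called.

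Among the transporters, sut1 (GRMZM2G034302), the sucrose/proton symporter that loads the phloem, had 113 and 103 FPKM in BS cells, against 5.34 and 9.31 FPKM in M cells at SST. At maturing it had 297 and 277 FPKM in BS cells, against 4.90 and 1.81 FPKM in M cells, a ratio of 85.6, and at mature 40.4 and 41.1 FPKM in BS cells, against 11.9 and 4.02 FPKM in M cells, a ratio of 5.10. The M libraries differed widely within the maturing and the mature stage. Its fall in BS cells from maturing to mature (log2 change -2.74 ± 0.54, adjusted p = 0.0073) was lost in 8 of the 12 fits without 1 library (adjusted p up to 0.06). An MtN3 family gene (GRMZM2G021706), of the SWEET family of sugar exporters, had 54.0 and 43.5 FPKM in BS cells, against 4.18 and 3.48 FPKM in M cells at SST. Maturing values were 406 and 271 FPKM in BS cells, against 6.21 and 10.1 FPKM in M cells, and mature values 206 and 363 FPKM in BS cells, against 38.9 and 53.9 FPKM in M cells. It rose in BS cells from SST to maturing (2.88 ± 0.36, adjusted p = 0.00096) and in M cells from maturing to mature (2.37 ± 0.36, adjusted p = 0.002). The first call was lost without maturing BS library 1 or SST BS library 2 (adjusted p up to 0.015) and the second without maturing M library 1 or mature M library 2 (adjusted p up to 0.023).

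The silicon channel NIP2-1 (GRMZM2G028325), an aquaporin whose rice counterpart Lsi1 takes up silicic acid, had 93.9 and 80.1 FPKM in BS cells, against 12.5 and 11.4 FPKM in M cells at SST and 289 and 342 FPKM in BS cells, against 10.7 and 7.92 FPKM in M cells at maturing. At mature its values were 262 and 377 FPKM in BS cells, against 14.8 and 19.0 FPKM in M cells, and its ratio of 18.9 was the highest of the transporters at that stage. It rose in BS cells at the first step (1.97 ± 0.25, adjusted p = 0.001), a call lost without SST BS library 2 or maturing BS library 2 (adjusted p up to 0.013). A purine permease (ATPUP3, GRMZM2G009344) had 164 and 152 FPKM in BS cells, against 5.06 and 4.64 FPKM in M cells at maturing, rose in BS cells at the first step (2.00 ± 0.21, adjusted p = 0.00046) and in M cells at the next (1.67 ± 0.21, adjusted p = 0.00084). The BS call held with every library left out in turn, and the M call was lost without maturing M library 2 (adjusted p = 0.01). The MtN21 family gene GRMZM2G088053, named for a nodulin family that in Arabidopsis holds amino acid exporters, had 70.5 and 54.7 FPKM in BS cells, against 1.17 and 0.819 FPKM in M cells at maturing. Its mature BS libraries gave 7.65 and 30.4 FPKM, and no change of it was called.

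Photorespiration was represented by GLDP2 (GRMZM2G104310), the P protein of glycine decarboxylase, which in C4 leaves is found mainly in the BS. It had 86.3 and 84.8 FPKM in BS cells, against 10.4 and 9.93 FPKM in M cells at SST. At maturing it had 135 and 169.7 FPKM in BS cells, against 5.16 and 5.01 FPKM in M cells, and at mature 125 and 168 FPKM in BS cells, against 20.4 and 29.2 FPKM in M cells. No change was called in BS cells, and in M cells it rose from maturing to mature (log2 change 2.09 ± 0.23, adjusted p = 0.00047). The cytosolic glutamine synthetase GLN6 (GRMZM2G050514), which assimilates ammonium, had 40.5 and 39.8 FPKM in BS cells, against 3.76 and 5.53 FPKM in M cells at SST. The values at maturing were 53.6 and 57.7 FPKM in BS cells, against 2.65 and 2.23 FPKM in M cells, and those at mature 173 and 288 FPKM in BS cells, against 21.9 and 27.7 FPKM in M cells. It rose at the later step in BS cells (2.07 ± 0.29, adjusted p = 0.0014) and in M cells (3.10 ± 0.29, adjusted p = 0.00019), and the BS call was lost without maturing BS library 1 or maturing BS library 2 (adjusted p up to 0.018). The BS/M ratio of GLN6 was 22.8 at maturing and 9.29 at mature, after 8.65 at SST.

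Sulfite reductase (sir, GRMZM2G090338), which reduces sulfite to sulfide in the plastid, had 149 and 139 FPKM in BS cells, against 14.7 and 10.5 FPKM in M cells at maturing and 164 and 182 FPKM in BS cells, against 29.8 and 35.8 FPKM in M cells at mature. Only its rise in M cells at the later step was called (1.25 ± 0.21, adjusted p = 0.0037), and this was lost in 5 of the 12 fits without 1 library (adjusted p up to 0.028). A nicotianamine synthase gene (NAS4, GRMZM2G478568), whose product chelates iron and other metals for transport, had 46.9 and 48.4 FPKM in BS cells, against 0.723 and 7.14 FPKM in M cells at SST and 341 and 219.9 FPKM in BS cells, against 4.76 and 2.21 FPKM in M cells at maturing, and no change of it was called. The uridylyltransferase-related gene GRMZM2G120579 was the most abundant of the group, with 919 and 1079 FPKM in BS cells, against 51.1 and 76.4 FPKM in M cells at maturing and no called change. The gene GRMZM2G448446 of the fumarylacetoacetate hydrolase family, an enzyme class of tyrosine breakdown, rose from maturing to mature in BS cells (1.67 ± 0.28, adjusted p = 0.0034) and in M cells (3.17 ± 0.28, adjusted p = 0.00015), with 61.7 and 63.8 FPKM in BS cells, against 6.70 and 6.21 FPKM in M cells at mature. Its BS call was lost in 6 of the 12 fits without 1 library (adjusted p up to 0.031).

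Of the regulators, the MYB transcription factor gene MYB59 (GRMZM2G130149) was the most abundant. It had 99.0 and 96.6 FPKM in BS cells, against 14.9 and 11.1 FPKM in M cells at SST. Libraries of the maturing stage gave 353 and 408 FPKM in BS cells, against 9.03 and 6.38 FPKM in M cells, and those of the mature stage 372 and 363 FPKM in BS cells, against 14.2 and 11.5 FPKM in M cells. It rose in BS cells from SST to maturing (log2 change 2.07 ± 0.20, adjusted p = 0.00032), with no called change from maturing to mature and none in M cells, and the ratio was 28.6 at mature. LOL3 (GRMZM2G120079), a zinc finger gene of the LSD1 family, had 21.5 and 18.5 FPKM in BS cells, against 0.841 and 0.462 FPKM in M cells at SST. For maturing the values were 326 and 233 FPKM in BS cells, against 5.07 and 1.12 FPKM in M cells, and for mature 95.7 and 80.0 FPKM in BS cells, against 15.4 and 4.30 FPKM in M cells. Its rise in BS cells (3.88 ± 0.68, adjusted p = 0.0053) was lost in 8 of the 12 fits without 1 library (adjusted p up to 0.055). The bZIP factor gene BZO2H2 (GRMZM2G098904) had 80.6 and 66.9 FPKM in BS cells, against 1.84 and 0.897 FPKM in M cells at maturing and rose in M cells at the later step (2.64 ± 0.34, adjusted p = 0.00086), lost without mature M library 2 (adjusted p = 0.011).

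The MYB gene myb8 (GRMZM2G041415) had 22.7 and 19.0 FPKM in BS cells, against 4.62 and 4.23 FPKM in M cells at SST and 15.4 and 15.1 FPKM in BS cells, against 0.774 and 0.49 FPKM in M cells at mature. It fell in M cells at the first step (-2.36 ± 0.37, adjusted p = 0.0039), a call lost in 8 of the 12 fits without 1 library (adjusted p up to 0.029). An ethylene-responsive gene (GRMZM2G030123) held the steadiest BS level of the 135 genes, 80.3 and 68.0 FPKM at SST, 88.7 and 83.8 FPKM at maturing and 75.1 and 97.7 FPKM at mature. In M cells it had 16.1 and 10.1, 1.97 and 1.31 and 4.99 and 5.19 FPKM, with a called fall (-2.58 ± 0.26, adjusted p = 0.00061) that held with every library left out and a called rise (1.41 ± 0.26, adjusted p = 0.0051) lost in 8 of the 12 fits without 1 library (adjusted p up to 0.041). Its ratio of 52.7 at maturing came with a change in M and none called in BS cells.

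Calcium-binding proteins were represented by a calmodulin gene (GRMZM2G149923) and by the annexin gene Ann5 (GRMZM2G172834). The calmodulin gene had 17.96 and 15.1 FPKM in BS cells, against 1.82 and 5.26 FPKM in M cells at SST. Maturing values were 68.9 and 64.5 FPKM in BS cells, against 0.93 and 0.422 FPKM in M cells, and mature values 54.1 and 222 FPKM in BS cells, against 17.5 and 22.0 FPKM in M cells. It rose in M cells at the later step (4.39 ± 0.68, adjusted p = 0.0023), a call lost in 8 of the 12 fits without 1 library (adjusted p up to 0.031). Ann5 had 14.4 and 13.5 FPKM in BS cells, against 0.617 and 0.564 FPKM in M cells at SST, 116 and 84.7 FPKM in BS cells, against 0.603 and 0.3 FPKM in M cells at maturing and 16.6 and 17.7 FPKM in BS cells, against 3.600 and 0.829 FPKM in M cells at mature, and its ratio of 222 at maturing rests on M values below 1 FPKM. It rose and then fell in BS cells (2.92 ± 0.50, adjusted p = 0.0048 and -2.45 ± 0.50, adjusted p = 0.0087), the rise being lost in 10 of the 12 fits without 1 library (adjusted p up to 0.049) and the fall in 10 of the 12 fits without 1 library (adjusted p up to 0.076).

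In the remaining group, bss1 (GRMZM2G168552), named bundle sheath strand specific, had 119.7 and 97.9 FPKM in BS cells, against 4.41 and 5.48 FPKM in M cells at SST. At maturing it had 4264 and 3680.0 FPKM in BS cells, against 57.3 and 20.7 FPKM in M cells, and at mature 954 and 813 FPKM in BS cells, against 199 and 58.9 FPKM in M cells. It rose in BS cells at the first step (5.30 ± 0.57, adjusted p = 0.0005) and in M cells as well (2.99 ± 0.57, adjusted p = 0.0094), the M call being lost in 10 of the 12 fits without 1 library (adjusted p up to 0.073). The beta-glucosidase glu2 (GRMZM2G008247), of a family that releases defensive benzoxazinoids from their glucosides, had 730.4 and 710.4 FPKM in BS cells, against 38.3 and 38.1 FPKM in M cells at SST. The values at maturing were 253 and 260.3 FPKM in BS cells, against 4.63 and 2.12 FPKM in M cells, and those at mature 22.5 and 17.0 FPKM in BS cells, against 5.66 and 0.511 FPKM in M cells. None of its changes was called, and the drop between maturing and mature in BS cells (-3.63 ± 0.78, adjusted p = 0.01) stood at the threshold of 0.01. A late embryogenesis abundant gene (LEA, GRMZM2G099003), of a family that protects proteins under water loss, had 9.86 and 11.1 FPKM in BS cells, against 0.858 and 1.70 FPKM in M cells at SST. Libraries of the maturing stage gave 18.2 and 22.6 FPKM in BS cells, against 0.439 and 0.318 FPKM in M cells, and those of the mature stage 523 and 519 FPKM in BS cells, against 11.2 and 9.32 FPKM in M cells. It rose at the later step in BS cells (4.73 ± 0.28, adjusted p = 1.8e-05) and in M cells (3.99 ± 0.28, adjusted p = 4.5e-05), and both calls held with every library left out in turn.

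Glyoxalase I (GRMZM2G067028), which clears methylglyoxal, rose in BS cells at both steps (log2 change 1.93 ± 0.18, adjusted p = 0.00023 and 0.97 ± 0.18, adjusted p = 0.0048), the later call being lost without maturing BS library 1 or mature BS library 2 (adjusted p up to 0.025). It had 21.1 and 20.6 FPKM in BS cells, against 4.11 and 4.43 FPKM in M cells at SST. For maturing the values were 68.2 and 80.0 FPKM in BS cells, against 2.16 and 2.56 FPKM in M cells, and for mature 124 and 154 FPKM in BS cells, against 16.4 and 16.6 FPKM in M cells. The aldehyde oxidase gene AAO1 (GRMZM2G141473) had 14.9 and 14.2 FPKM in BS cells, against 0.404 and 0.376 FPKM in M cells at maturing and 24.7 and 35.6 FPKM in BS cells, against 4.68 and 4.76 FPKM in M cells at mature. It rose at the later step in BS cells (1.08 ± 0.22, adjusted p = 0.0076), a call lost in 9 of the 12 fits without 1 library (adjusted p up to 0.032), and in M cells (2.88 ± 0.22, adjusted p = 6.3e-05). FAR4 (GRMZM2G480516), a fatty acyl reductase whose Arabidopsis namesake makes fatty alcohols of suberin, had 27.7 and 26.2 FPKM in BS cells, against 0.969 and 0.558 FPKM in M cells at maturing. The manganese superoxide dismutase gene SODA (GRMZM2G124455) had 23.5 and 26.5 FPKM in BS cells, against 6.14 and 4.60 FPKM in M cells at SST, and the cysteine protease inhibitor gene cystatin3 (GRMZM2G440968) had 119 and 190.1 FPKM in BS cells, against 17.8 and 10.96 FPKM in M cells at mature. No change of these 3 genes was called in BS cells.

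**Figure D3:**
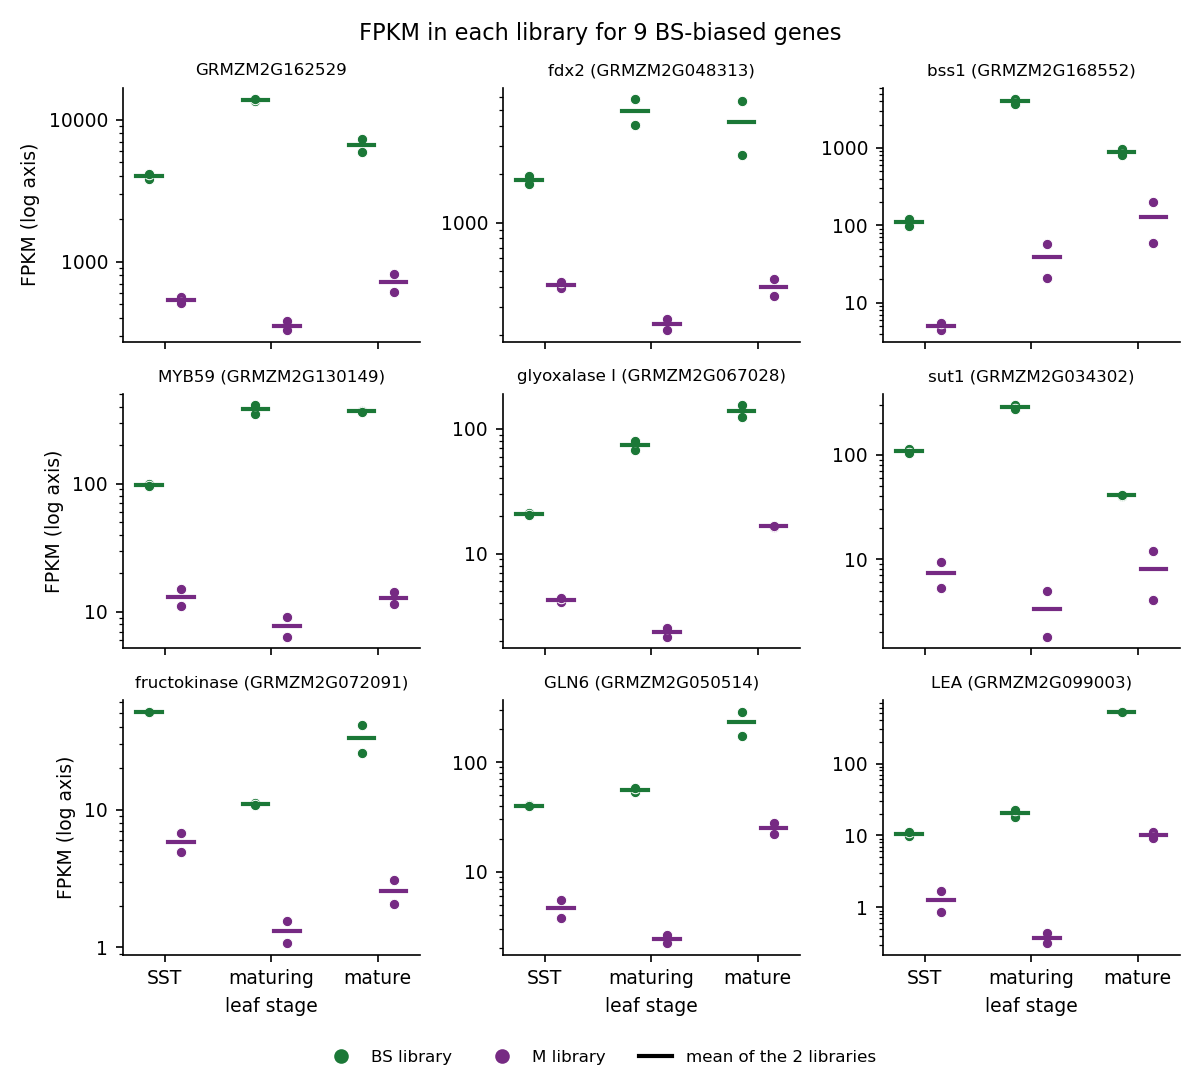
FPKM in each library (log axis) for 9 of the BS-biased genes, with BS libraries in green left of M libraries in purple at each stage and a bar at the mean of the 2 libraries. Within a stage the BS libraries lie above the M libraries, as the choice of the genes requires, and the panels differ in course: bss1 has its BS peak at maturing, the fructokinase gene its lowest BS level there, and the LEA gene its peak at mature.

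Changes along the leaf were tested with limma on log2 values over 32548 genes, 135 of them the BS-biased ones, a gene being called where the adjusted p was below 0.01. From SST to maturing 39 of the 135 genes rose in BS cells and 3 fell, and of all genes tested 6.10% rose and 5.01% fell. The median log2 change of the 135 genes was 1.10, and over all genes tested it was 0. From maturing to mature 18 rose and 8 fell in BS cells, against a background of 7.79% and 6.57%, and the median was 0.00. Abundant genes were called more often, so the 8870 genes whose mean log2 level was at least that of the lowest of the 135 give a closer background. Among these, 16.7% rose and 8.87% fell at the first step in BS cells, and 12.6% rose and 10.5% fell at the next. Of the 135 genes 28.9% rose at the first step, above both backgrounds, and 2.22% fell, below both. At the next step 13.3% rose, close to the share among the 8870 genes, and 5.93% fell, below their share of falls. The choice required a BS mean of at least 10 FPKM at every stage, which neither background did. A gene that fell far in BS cells could drop out, so the low shares of falls are partly set by the choice. In 77 genes no change in BS cells was called at either step. Pairs of calls, at both steps or in both cell types, were not counted over all genes tested. Such counts, here and below, are therefore a description of the 135 genes alone. With 1 library fewer, the 39 rises became 20 and 15 without SST BS library 1 or 2, and 22 and 18 without maturing BS library 1 or 2. The 18 rises became 11 without either SST BS library, 8 and 9 without maturing BS library 1 or 2, and 9 without mature BS library 2. The 8 falls became 5 without any one of the SST libraries or without mature BS library 1, and 3 and 4 without maturing BS library 1 or 2. Of the 3 falls at the first step 1 was called without SST BS library 1 or either maturing BS library.

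The largest rise in BS cells from SST to maturing was that of GRMZM2G022958, which has no function in the tables, with 52.7 and 27.3 FPKM in BS cells, against 1.96 and 3.58 FPKM in M cells at SST and 4216 and 2701 FPKM in BS cells, against 33.4 and 15.5 FPKM in M cells at maturing (log2 change 6.58 ± 0.46, adjusted p = 8.2e-05). The next was that of bss1, and then came GRMZM2G410766, GRMZM2G348125 and GRMZM2G469380, with log2 changes of 4.24 ± 0.74, 4.05 ± 0.75 and 3.93 ± 0.57. These last 3 genes lie side by side in RefSeq order, within 2 places of each other, and reads shared between such neighbours, if they are alike, cannot be told apart here. Their BS levels at maturing were 914 and 638, 539 and 385 and 1373 and 1105 FPKM, against 9.97 and 2.89, 3.53 and 1.85 and 22.6 and 6.72 FPKM in M cells. In BS cells GRMZM2G410766 was lost in 6 of the 12 fits without 1 library (adjusted p up to 0.054), GRMZM2G348125 in 10 of the 12 fits without 1 library (adjusted p up to 0.064) and GRMZM2G469380 without maturing BS library 1, SST BS library 1, SST BS library 2 or maturing BS library 2 (adjusted p up to 0.028). At the later step the largest rise was that of the LEA gene, ahead of GRMZM2G399183 (3.58 ± 0.36, adjusted p = 0.00028, with 1065 and 1219.6 FPKM in BS cells, against 93.5 and 75.2 FPKM in M cells at mature) and GRMZM5G873681 (3.36 ± 0.41, adjusted p = 0.0007), the call of GRMZM5G873681 being lost without maturing BS library 1 (adjusted p = 0.013).

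The largest fall in BS cells was that of GRMZM5G856907, which had 64.3 and 60.1 FPKM in BS cells, against 7.40 and 5.66 FPKM in M cells at SST. Maturing values were 689 and 663 FPKM in BS cells, against 28.4 and 21.2 FPKM in M cells, and mature values 50.3 and 37.2 FPKM in BS cells, against 10.6 and 7.54 FPKM in M cells. It rose at the first step (3.55 ± 0.22, adjusted p = 5.3e-05) and fell at the next (-3.89 ± 0.22, adjusted p = 1.4e-05), and both calls held with every library left out in turn. The falls of GRMZM2G067575 (-3.01 ± 0.36, adjusted p = 0.00063) and GRMZM2G095655 (-2.88 ± 0.37, adjusted p = 0.00096) followed, the first lost without maturing BS library 1 (adjusted p = 0.011) and the second without maturing BS library 2, maturing BS library 1 or mature BS library 2 (adjusted p up to 0.013). Their BS levels at mature were 67.6 and 50.8 and 23.9 and 23.6 FPKM, against 6.10 and 4.54 and 2.89 and 1.497 FPKM in M cells. A rise at both steps was called in 3 genes, glyoxalase I, GRMZM2G092497 and GRMZM2G092780, a rise and then a fall in 4, GRMZM2G162529, GRMZM2G058261, Ann5 and GRMZM5G856907, and a fall and then a rise in 3, among them the fructokinase gene and GRMZM5G806622. For GRMZM2G092780 the first rise was lost without SST BS library 1, SST BS library 2 or maturing BS library 2 (adjusted p up to 0.018) and the second in 8 of the 12 fits without 1 library (adjusted p up to 0.051). The rise of GRMZM2G058261 was lost without SST BS library 1, SST BS library 2 or maturing BS library 2 (adjusted p up to 0.026). The fall of GRMZM5G806622 was lost in 11 of the 12 fits without 1 library (adjusted p up to 0.042) and its rise without maturing BS library 2 or mature BS library 1 (adjusted p up to 0.016).

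**Figure D4:**
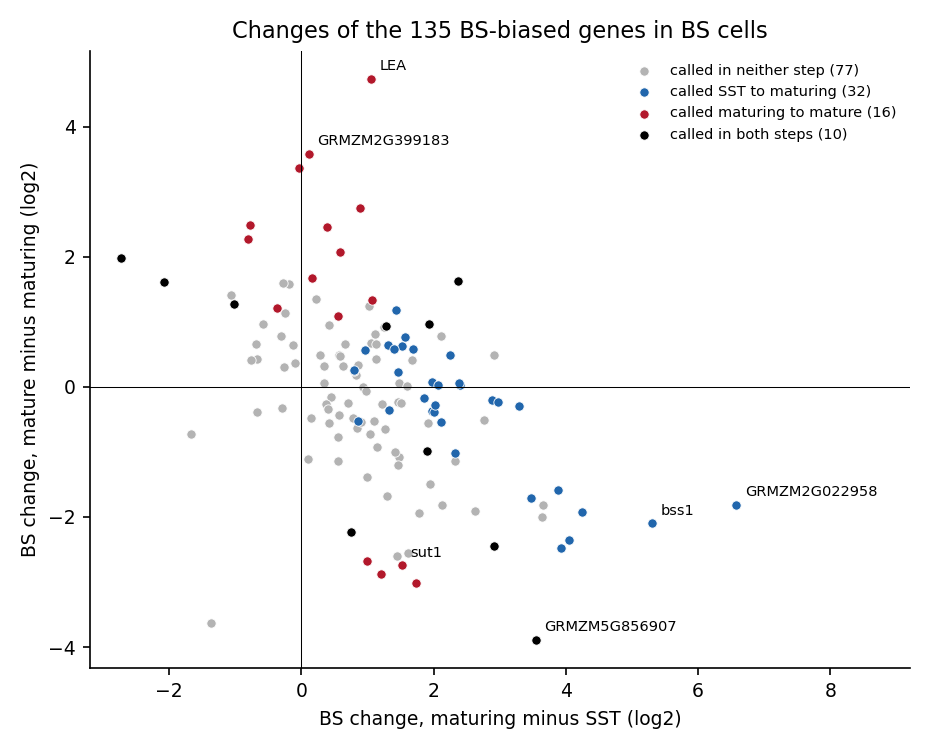
Change of the 135 BS-biased genes in BS cells on the log2 scale, from SST to maturing (horizontal axis, maturing minus SST) and from maturing to mature (vertical axis, mature minus maturing). Points are coloured by the step at which the change was called at an adjusted p below 0.01, and 77 of them were called at neither step.

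In M cells, from SST to maturing 27 of the 135 genes fell and 3 rose, the background being 3.87% for falls and 4.48% for rises, and the median log2 change was -0.68. From maturing to mature 57 rose and 2 fell, the background being 7.31% for rises and 6.95% for falls, and the median was 1.49. The 57 genes are 42.2% of the 135, and the 27 are 20.0%. Among the 8870 genes described above, 6.47% fell and 12.7% rose at the first step in M cells, and 11.4% rose and 13.7% fell at the next. Their level was a lower limit on the mean over BS and M libraries, so they are not matched to the M levels of the 135. The choice required a BS mean of at least 4 times the M mean at every stage. That is a ceiling on M values that neither background had. The M values tested thus also chose the genes, and what part of these shares the choice set was not tested. In 41 of the 57 genes that rose in M cells from maturing to mature, no change was called in BS cells at that step. The other 16 of the 57 rose in both cell types. In 18 of the 135 genes a fall in M cells was followed by a rise. At the first step 0 genes were called higher in BS and lower in M cells, and 24 of the 27 falls in M cells came with no call in BS cells. These joint counts have no background over all genes tested, so nothing particular to the 135 is read from them. The 27 falls became 13 and 16 without SST M library 1 or 2, and 16 and 13 without maturing M library 1 or 2. The 57 rises became 37 and 30 without maturing M library 1 or 2, and 37 without mature M library 2. The 3 rises at the first step became 1 without SST M library 1, maturing M library 1 or either maturing BS library, and the 2 falls at the later step became 1 without maturing M library 1 or mature M library 2.

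Among the genes that moved most in M cells at the later step were GRMZM2G399183 (4.70 ± 0.36, adjusted p = 7.5e-05), GRMZM2G480850 (4.41 ± 0.27, adjusted p = 2.6e-05) and calmodulin, all chosen here after their values were seen. GRMZM2G399183 had 69.97 and 142 FPKM in BS and 3.68 and 2.02 FPKM in M cells at maturing, and 1065 and 1219.6 FPKM in BS cells, against 93.5 and 75.2 FPKM in M cells at mature. Even after such a rise the M libraries stayed below the BS libraries of the same stage, as the choice of the genes requires. The M marker PPDK, which regenerates the CO2 acceptor of M cells, had 9039 and 8763 FPKM in BS cells at SST, 16575 and 14935 FPKM at maturing and 21274 and 13774 FPKM at mature, against 22519 and 26481, 41216 and 44025 and 37101 and 43381 FPKM in M cells. Of the left-out BS genes, NADP-ME had 10342 and 8729.7 FPKM in BS cells, against 226 and 239 FPKM in M cells at maturing and 4510.2 and 7139.5 FPKM in BS cells, against 472 and 652 FPKM in M cells at mature. Whether BS transcripts carried over into the M captures had a part in these M values was not tested.

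**Figure D5:**
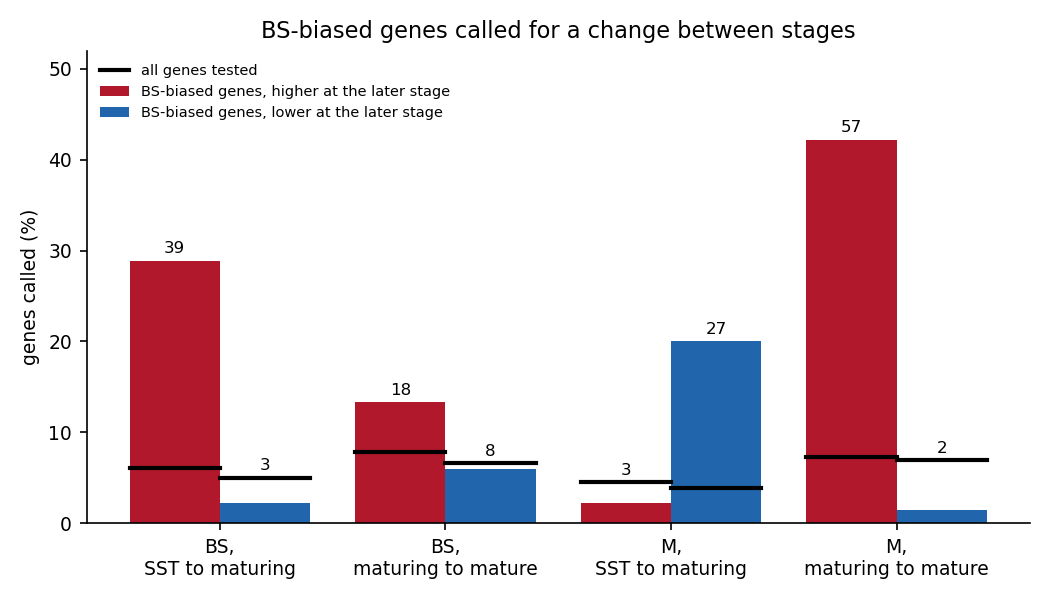
Share of the 135 BS-biased genes called higher (red) or lower (blue) at the later stage, by cell type and step, with the number of genes above each bar and the share of all 32548 genes tested as a black line. The tallest bar is the rise in M cells from maturing to mature, 57 genes or 42.2%, where 7.31% of all genes were called. The choice of the 135 set limits on their BS and M values that all genes tested lacked.

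The change of log2 BS/M between stages was tested as an interaction. From SST to maturing it was positive in 131 of the 135 genes, with a median of 1.90, but called in only 3, all larger at maturing, with a background of 0.172% for larger and 0.135% for smaller ratios. At an unadjusted p below 0.05 there were 104 genes with a larger and 0 with a smaller ratio. Of all genes tested 7.66% were larger and 7.99% smaller at this limit. The choice required a ratio of at least 4 at every stage, a floor that the background lacks. With an SST median of 7.26 the ratios had little room to narrow, so the 0 is partly set by the choice. From maturing to mature it was negative in 122 genes, with a median of -1.40, and 3 were called, all smaller at mature, with a background of 0.578% for smaller and 0.356% for larger ratios. At an unadjusted p below 0.05 there were 93 genes with a smaller and 2 with a larger ratio, while of all genes tested 8.59% were smaller and 9.92% larger at this limit. With the deposited values unscaled, 12 genes were called at the first step and 10 at the next, and without the trend of the spread 0 and 1.

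The 3 genes whose bias widened from SST to maturing were glyoxalase I (log2 change 2.49 ± 0.25, adjusted p = 0.0043), MYB59 (2.57 ± 0.29, adjusted p = 0.0068) and GRMZM2G416388 (2.72 ± 0.30, adjusted p = 0.0065). Glyoxalase I and MYB59 rose in BS cells, while GRMZM2G416388 held a BS level of 74.5 and 67.9 FPKM at SST and 62.4 and 59.9 FPKM at maturing, against 16.7 and 10.5 and 1.25 and 1.51 FPKM in M cells. The glyoxalase call held with every library left out in turn, that of MYB59 was lost in 6 of the 12 fits without 1 library (adjusted p up to 0.012) and that of GRMZM2G416388 in 5 of the 12 fits without 1 library (adjusted p up to 0.011). The bias narrowed from maturing to mature in GRMZM2G164229 (-2.75 ± 0.37, adjusted p = 0.0085), GRMZM2G128072 (-2.52 ± 0.23, adjusted p = 0.0017) and GRMZM5G856907 (-2.33 ± 0.31, adjusted p = 0.008). For GRMZM2G164229 the M level was 168 and 138 FPKM at maturing and 1920.3 and 1468 FPKM at mature, with 5385 and 4838 and 6693 and 7899 FPKM in BS cells. GRMZM2G128072 had 404 and 414 FPKM in BS cells, against 12.1 and 10.3 FPKM in M cells at maturing and 669.7 and 657 FPKM in BS cells, against 111 and 130.4 FPKM in M cells at mature, and its call held under every alternative. The call of GRMZM2G164229 was lost in 10 of the 12 fits without 1 library (adjusted p up to 0.033) and that of GRMZM5G856907 in 9 of the 12 fits without 1 library (adjusted p up to 0.024).

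In the comparison that chose the genes, BS against M at an adjusted p below 0.01, 105 of the 135 were called at SST, 132 at maturing and 109 at mature, where 1.64%, 4.82% and 3.66% of all genes tested were called higher in BS. Nothing is read from these counts.

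The M libraries of a stage did not behave alike for all of the genes. In 15 genes M library 1 was more than 2 times M library 2 at both maturing and mature (after adding 0.1 FPKM to each), and in 0 genes the reverse held at both stages. This set, formed after the values were seen, holds sut1, glu2, LOL3, MYBR41, bss1, NAS4, GRMZM2G410766 and GRMZM2G469380 among others, and its median ratio was 84.1 at maturing and 7.48 at mature. For sut1 the M values were 4.90 and 1.81 FPKM at maturing and 11.9 and 4.02 FPKM at mature, and for bss1 57.3 and 20.7 and 199 and 58.9 FPKM. At SST 2 of the 15 were more than 2 times higher in library 1 and 6 less than 0.5 times. Some of the M values were low, as in MYBR41, with 2.41 and 0.253 FPKM at maturing and 2.65 and 0 FPKM at mature. The same split was not counted over all genes tested, so it is not shown to be particular to these genes. The part of other cells in the captures was not tested.

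Other genes of the same pathways were counted from annotation lists, most of which come from a table of genes that the study itself found to differ, so that they are not independent evidence of direction. Over all genes tested, 1.44% at SST, 3.56% at maturing and 2.07% at mature were called lower in BS cells, beside the shares called higher given above. Of 68 other tested genes of starch and sucrose metabolism, 10 at SST, 18 at maturing and 20 at mature were called higher in BS cells, and 1, 3 and 4 lower. Of 170 other genes of nitrogen and amino acid metabolism, 12, 29 and 23 were called higher in BS cells at these stages, and 9, 23 and 6 lower. Of 96 other redox genes 10, 23 and 15 were higher and 6, 13 and 8 lower, and the redox list also holds GRMZM2G022997, 1 of the 135, with 109 and 84.6 FPKM in BS cells, against 3.05 and 2.17 FPKM in M cells at maturing. Among 162 other genes of transcription regulators 5, 16 and 11 were higher and 1, 5 and 5 lower. Among 45 tested genes of a list of membrane transport 6, 12 and 12 were higher and 1, 6 and 1 lower. That list holds 0 of the 135 genes, so it misses sut1 and the other transporters described above. The list of cell wall and lipid barrier genes had 3, 6 and 2 of 107 higher and 5, 23 and 10 lower in BS cells. None of the 135 genes is on it, but 120 of its 129 genes come from the study's table. Only 22 of the 135 are in that table, so their absence from the list says little. FAR4, described above, is annotated there under lipid degradation instead. The smaller lists held 7 other photorespiration genes (1, 3 and 2 higher, 0, 1 and 0 lower) and 8 of the Calvin cycle (2, 3 and 1 higher, 1, 2 and 3 lower). They also held 14 of sulfur and glutathione (1, 2 and 1 higher, 2, 4 and 0 lower), 46 of protein folding and turnover (2, 7 and 4 higher, 0, 3 and 2 lower) and 2 of the NDH complex, with no call. These 2 were matched by name alone and are absent from the study's table. The study itself reports high transcript levels of NDH subunits in BS cells at every stage, so the 2 genes cannot stand for the complex.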

How the data were processed

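Transcripts of LM-captured BS and M cells from leaf sections 4, 9 and 14 (SST, maturing and mature) were measured by RNA-seq, with 2 libraries per group. The authors deposited FPKM values per gene and library, with no read counts. The submitters' processing notes name CASAVA 1.3, TopHat2 2.0.10, Cuffdiff 2.1.1 and B73 RefGen_v3, without their roles, while the study's methods refer to a filtered gene set of an earlier assembly. Amplified RNA is covered mainly at the 3' end, so levels of different genes compare loosely.

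The genes were taken from the deposited values. For the tests, libraries were brought to the same upper quartile, 2.55 FPKM over genes above 0, and log2(FPKM + 0.255) was fitted with limma 3.58.1 (R 4.3.3; 6 group means, trend, 6 residual and 2.12 prior degrees of freedom). Tested were 32548 genes whose mean reached 0.255 FPKM in some group, and p-values were adjusted by Benjamini-Hochberg within each comparison. Fold changes on this scale understate those of low genes. The fit was tested on simulated data. Relative depth came from the steps that single reads leave in low values.

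The 135 genes and the gene lists were chosen with earlier results of these data known. Named are the 15 genes with the highest BS mean, the 10 with the largest lowest ratio, those called for a change of log2 BS/M, the largest called changes in BS, the genes at the 4-fold limit and the top 4 members of each list. The 41 genes sorted by function were added after their values were seen, from RefSeq (NAM-5.0, names and order only, 104 of the 135 matched) or the study's annotation (22 matched). Coordinates, sequences and paralogs were not used here, and 1 gene is not reported here singly. Tables and figures come from pandas 2.3.3, NumPy 2.4.6 and matplotlib 3.10.9 under Python 3.11.15.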

Additional observations from a re-analysis of the deposited data

Results flagged for a closer look

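The change between successive stages differed between BS and M cells in 6 of the 135 genes by limma's interaction test at an adjusted p below 0.01. Of all genes tested, 0.172% were called for a larger and 0.135% for a smaller ratio from SST to maturing. From maturing to mature these shares were 0.356% and 0.578%. Larger at maturing than at SST were the ratios of glyoxalase I (GRMZM2G067028, log2 change 2.49 ± 0.25, adjusted p = 0.0043), MYB59 (GRMZM2G130149, 2.57 ± 0.29, adjusted p = 0.0068) and GRMZM2G416388 (2.72 ± 0.30, adjusted p = 0.0065). Smaller at mature than at maturing were those of GRMZM2G164229 (-2.75 ± 0.37, adjusted p = 0.0085), GRMZM2G128072 (-2.52 ± 0.23, adjusted p = 0.0017) and GRMZM5G856907 (-2.33 ± 0.31, adjusted p = 0.008). For GRMZM2G128072 and GRMZM2G164229 the change in M cells was a called rise (3.28 ± 0.16 and 3.34 ± 0.26) with no call in BS cells at that step. For GRMZM5G856907 both cell types fell, with log2 changes of -3.89 in BS and -1.55 in M cells. The calls of MYB59, GRMZM2G416388, GRMZM2G164229 and GRMZM5G856907 did not hold with every library left out in turn, as described above. Groups of 2 libraries were too small to be searched for outlying samples.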

How the results depend on the processing

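No called change of the 135 genes reversed under any alternative. Of 163 called changes, 33 were lost without the trend, 18 with the replicate block, 16 without the filter, 6 with a pseudocount of 1, 6 with the upper quartile divided by 100, 5 with median-of-ratios scaling, 4 unscaled and 0 with a group mean of at least 1. Leaving out each of the 12 libraries kept 1430 and lost 526 calls. At an adjusted p below 0.05, 67 genes rose in BS cells from SST to maturing (39 at 0.01) and 19 fell from maturing to mature (8 at 0.01), and in M cells 10 rose and 47 fell from SST to maturing (3 and 27). The 8 falls in BS cells from maturing to mature became 5 without the filter and 5 without the trend. The 3 widened ratios became 7 with a group mean of at least 1, 11 with median-of-ratios scaling, 12 unscaled, 6 without the filter, 6 with the smaller pseudocount, 0 without the trend and 40 at 0.05. The 3 narrowed ratios became 6, 10 and 10 under the first 3 of these, 5 with a pseudocount of 1, 1 without the trend and 28 at 0.05. Shares of all genes tested were not computed at 0.05. The counts at that limit therefore show only how the calls depend on it. The cause was not tested.

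With the replicate block 1 widened ratio was called. Deviations of same-numbered libraries correlated at -0.042 to 0.023 over 15 pairs, which showed no general pairing of the numbers. In 15 of the BS-biased genes, however, M library 1 was over 2 times M library 2 at both maturing and mature. The reverse held in 0 of the BS-biased genes, and the split was not counted over all genes tested. Whether the numbers pair samples for such genes was not tested. With the replicate block no other count moved by over 1.5 times.

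Leaving out 1 library in turn gave, from SST to maturing, 15 to 41 rises and 1 to 3 falls in BS cells, 1 to 3 rises and 13 to 27 falls in M cells and 2 to 11 widened ratios. From maturing to mature it gave 8 to 20 rises and 3 to 10 falls in BS cells, 30 to 57 rises and 1 to 3 falls in M cells and 1 to 9 narrowed ratios. BS against M at SST, 105 with all libraries, gave 54 to 95 by counts added after seeing the data, the lowest being 54 without either SST BS library, and 66 and 67 without SST M library 1 or 2. The choice itself gave 132 to 146 genes with 1 library left out, 131 with scaled values (129 shared), 196 and 112 with limits of 3 and 5 times, and 170 and 94 with limits of 5 and 20 FPKM. The comparison of paralog pairs was not run. With 2 libraries per group and the shallowest libraries at SST, changes of low M values are the least certain.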
